A study of Mus musculus with 11 samples.

Results

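The T cell receptor signalling machinery was described here as 38 named genes, of which 37 were measured among the 18193 genes with a value, and Lck was not analysed here. Each gene was represented by 1 probe set, the one with the highest mean over 11 Affymetrix arrays among those that carry a single gene symbol. By their usual roles 20 of the measured members activate signalling, 14 inhibit it and 3 have both or other roles. RNA came from CD4 T cells of mice aged 6 to 8 weeks, harvested from spleen and lymph nodes, enriched by positive selection on CD4 and sorted in 2 rounds that used GFP. GFPKO arrays (n = 3) held GFP-positive cells of Foxp3 GFPKO/WT mice, which carry a GFP knock-out allele beside a wild-type Foxp3 allele. Arrays labelled Treg (n = 5) held CD4 T cells described as positive for Foxp3, and TN arrays (n = 3) held CD4 T cells described as naive and negative for it. Strain was not stated, and genotype was given for the GFPKO samples only. The title of the series puts the cells in a study of how Foxp3 uses enhancers that precede it in the regulatory T cell lineage. All values are on the log2 scale of the deposited RMA table, and a gene was called where its limma test gave an adjusted p under 0.05 over all genes.

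The T cell receptor recognises a peptide on an MHC molecule and has no kinase of its own. Its CD3 and zeta chains are phosphorylated by Src family kinases, which the CD4 co-receptor brings close. Zap70 then binds these chains and phosphorylates the scaffolds Lat and SLP-76, on which phospholipase C, TEC family kinases and exchange factors meet. Diacylglycerol and calcium carry the signal on to Ras, NF-kB and NFAT. Phosphatases, ubiquitin ligases, diacylglycerol kinases and inhibitory adaptors hold each step back. In regulatory T cells this signalling is needed both for their formation in the thymus and for their suppressive function.

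The labels were checked first. Foxp3 averaged 6.93 ± 0.23 on GFPKO arrays (SD, n = 3), 3.47 ± 0.16 on arrays labelled Treg (n = 5) and 3.48 ± 0.45 on TN arrays (n = 3). Foxp3 on the arrays labelled Treg was thus at the level of the naive cells, which goes against their label. Each direction stated for these arrays depends on that label. The other 7 of 8 markers of regulatory T cells were called higher on arrays labelled Treg than on TN arrays, and all 8 were called higher on GFPKO arrays than on TN arrays. Relative to arrays labelled Treg, Il2ra, Tnfrsf18, Itgae and Nrp1 were called lower in GFPKO, Foxp3 was called higher, and 3 were not called. Xist, the RNA of the inactive X chromosome, averaged 11.34 on GFPKO arrays, 3.67 on arrays labelled Treg and 3.78 on TN arrays. The Y-linked gene Kdm5d averaged 2.08, 6.54 and 6.93 in the same order of groups, so genotype and sex cannot be told apart in any comparison with GFPKO. GFPKO arrays also varied most among themselves. Their pairwise correlations across genes were 0.979 to 0.99, against 0.99 to 0.997 on arrays labelled Treg and 0.994 to 0.995 on TN arrays. The actin control read higher at its 3′ than at its 5′ end by 0.77, 0.832 and 0.451 on the GFPKO arrays, 0.442 to 0.611 on arrays labelled Treg and 0.381 to 0.526 on TN arrays. This difference is a measure of RNA integrity, and its part in the results below was not tested beyond a fit that held it as a covariate. Nothing in the labels shows that replicates were separate mice, and the p-values here measure only a spread among samples that may be technical.

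Markers of other cells were summed on the linear scale on every array. The 10 myeloid and dendritic markers summed to 258 to 416 on GFPKO arrays, 307 to 498 on arrays labelled Treg and 1585 to 2763 on TN arrays. Of these 10 markers 6 were called lower than TN in each of the other groups, Lyz2 was called higher on arrays labelled Treg than on TN arrays, and Cd14 and Itgam were at or below background in every group. The 5 measured NK markers of 6 listed summed to 126 to 192 on GFPKO arrays, 292 to 389 on arrays labelled Treg and 604 to 822 on TN arrays. Ncr1 and Klra8 were at or below background in every group. Klrd1 read 9.10, 8.77 and 8.63 on TN arrays and averaged at or below background in both other groups. Klrd1 and Eomes were called lower than TN in each of the other groups. Relative to arrays labelled Treg, Klrd1 was called higher and Nkg7 lower in GFPKO. The 6 measured B cell markers of 7 listed summed to 100 to 131, 239 to 320 and 83 to 102 in that order of groups. Cd79a and Ms4a1 were at or below background throughout by group mean. Cd79b read 5.69 to 6.22 on GFPKO arrays, 7.40 to 8.02 on arrays labelled Treg and 4.12 to 4.64 on TN arrays. It was called in every comparison, while Ms4a1 and Blnk were called lower than TN in both other groups. The 2 CD8 markers summed to 141 to 191, 164 to 202 and 198 to 236, and neither was at or below background in any group. Cd8b1 was called lower in GFPKO than in TN. The 5 measured general T cell markers of 6 listed summed to 8497 to 9586 on GFPKO arrays, 7610 to 8089 on arrays labelled Treg and 9843 to 10442 on TN arrays. Tcra was at or below background in every group, and Thy1 was called lower than TN in both other groups. Cd28 was called lower on arrays labelled Treg than in TN, and higher in GFPKO than on arrays labelled Treg. The 3 measured markers of naive CD4 T cells, of 5 listed, summed to 6594 to 7657 on GFPKO arrays, 3929 to 4555 on arrays labelled Treg and 10021 to 10769 on TN arrays. Ccr7 and Lef1 were called higher in GFPKO than on arrays labelled Treg, and Ccr7, Lef1 and Il7r were called lower on arrays labelled Treg than in TN. Lef1 and Il7r were also called lower in GFPKO than in TN, and Ccr7 was not. The sums of myeloid, NK, T cell and naive markers did not overlap with TN in either of the other groups. The B cell sum did not overlap between arrays labelled Treg and TN, nor the CD8 sum between GFPKO and TN. Between GFPKO and arrays labelled Treg the NK, B cell, T cell and naive sums did not overlap. The part of these markers in the members' differences was not tested. In these bulk samples fewer cells of a type and less RNA per cell cannot be told apart. Background was set at 3.99, the highest Foxp3 value on a TN array, and the lowest group mean of any member was 6.17.

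**Figure D1:**
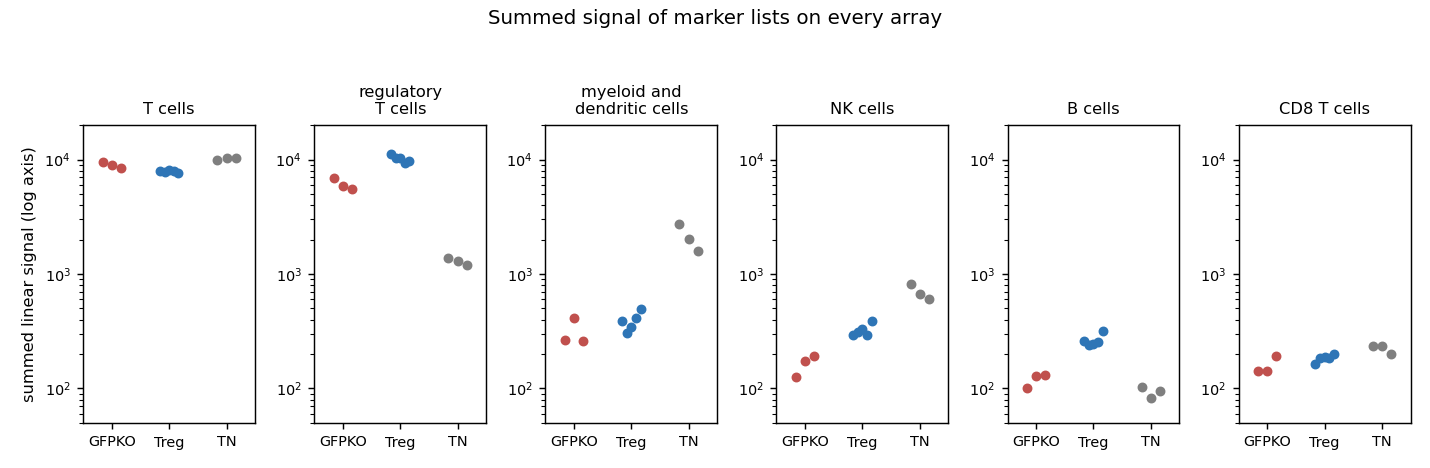
Summed linear signal of 6 marker lists (vertical log axis) on each array of the 3 groups, with 1 point per array. Myeloid and dendritic markers sum to 258 to 416 on GFPKO arrays, 307 to 498 on arrays labelled Treg and 1585 to 2763 on TN arrays.

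Between GFPKO arrays and arrays labelled Treg, 7 of the 37 members were called, all higher in GFPKO. They were the TEC family kinase Tec, the paracaspase Malt1, the Ras exchange factor Rasgrp1, the inhibitory genes Pag1, Ptpn22 and Dgka, and the adaptor Themis. That is 18.9% of the members, where the share over all genes was 9.43% (2.55% higher and 6.88% lower in GFPKO). The share over all genes includes dim genes. A fit of the 9494 genes with a group mean above 5.02, which hold all 37 members, called 1733 genes and 8 members. The members' share was thus near that of these brighter genes. The median log2 fold change of the members was 0.08, against -0.08 for all genes. The count depended on single arrays: it was 4 without GFPKO replicate 1 and 13 (9 higher and 4 lower) without GFPKO replicate 3. With the actin difference as a covariate 3 members remained called, Tec, Dgka and Themis. The naive marker sum was also higher on GFPKO arrays here (6594 to 7657, against 3929 to 4555 on arrays labelled Treg), and its part in these calls was not tested.

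Between GFPKO arrays and TN arrays, 3 of 37 members were called, or 8.11%, where the share over all genes was 5.66% (2.64% higher and 3.02% lower in GFPKO). The fit of the 9494 genes with a group mean above 5.02 called 1078 genes and 4 of the 37 members, again a similar share. Ubash3b, a phosphatase-related inhibitor, was higher, and the zeta chain gene Cd247 and the adaptor gene Grap2 were lower. The members' median log2 fold change was -0.02, against -0.04 for all genes. The count was 6 without GFPKO replicate 1 and 6 without GFPKO replicate 3. With the actin difference as a covariate limma called 0 members, and 8 passed an unadjusted p under 0.05. The naive marker sum was lower on GFPKO arrays than on TN arrays (6594 to 7657, against 10021 to 10769), and its part in these calls was not tested.

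Between arrays labelled Treg and TN arrays, 12 of 37 members were called, 3 higher and 9 lower on the arrays labelled Treg. Cd2, Sla and Ubash3b were the higher ones. Cd247, Grap2, Txk, Tec, Malt1, Rasgrp1, Pag1, Dgka and Themis were the lower ones. That is 32.4% of the members, where the share over all genes was 9.97% (6.54% higher and 3.42% lower on arrays labelled Treg). The fit of the 9494 genes with a group mean above 5.02 called 1699 genes and 13 of the 37 members. The median was -0.06 over the members and 0.03 over all genes. When each array was centred on its median, the medians of all genes became -0.11 here and 0.09 for GFPKO minus arrays labelled Treg, and the members' counts here became 1 higher and 12 lower. The naive marker sum was lower on arrays labelled Treg as well (3929 to 4555, against 10021 to 10769 on TN arrays), and its part in these calls was not tested. The 3 comparisons share arrays, so their counts are not independent of each other.

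**Figure D2:**
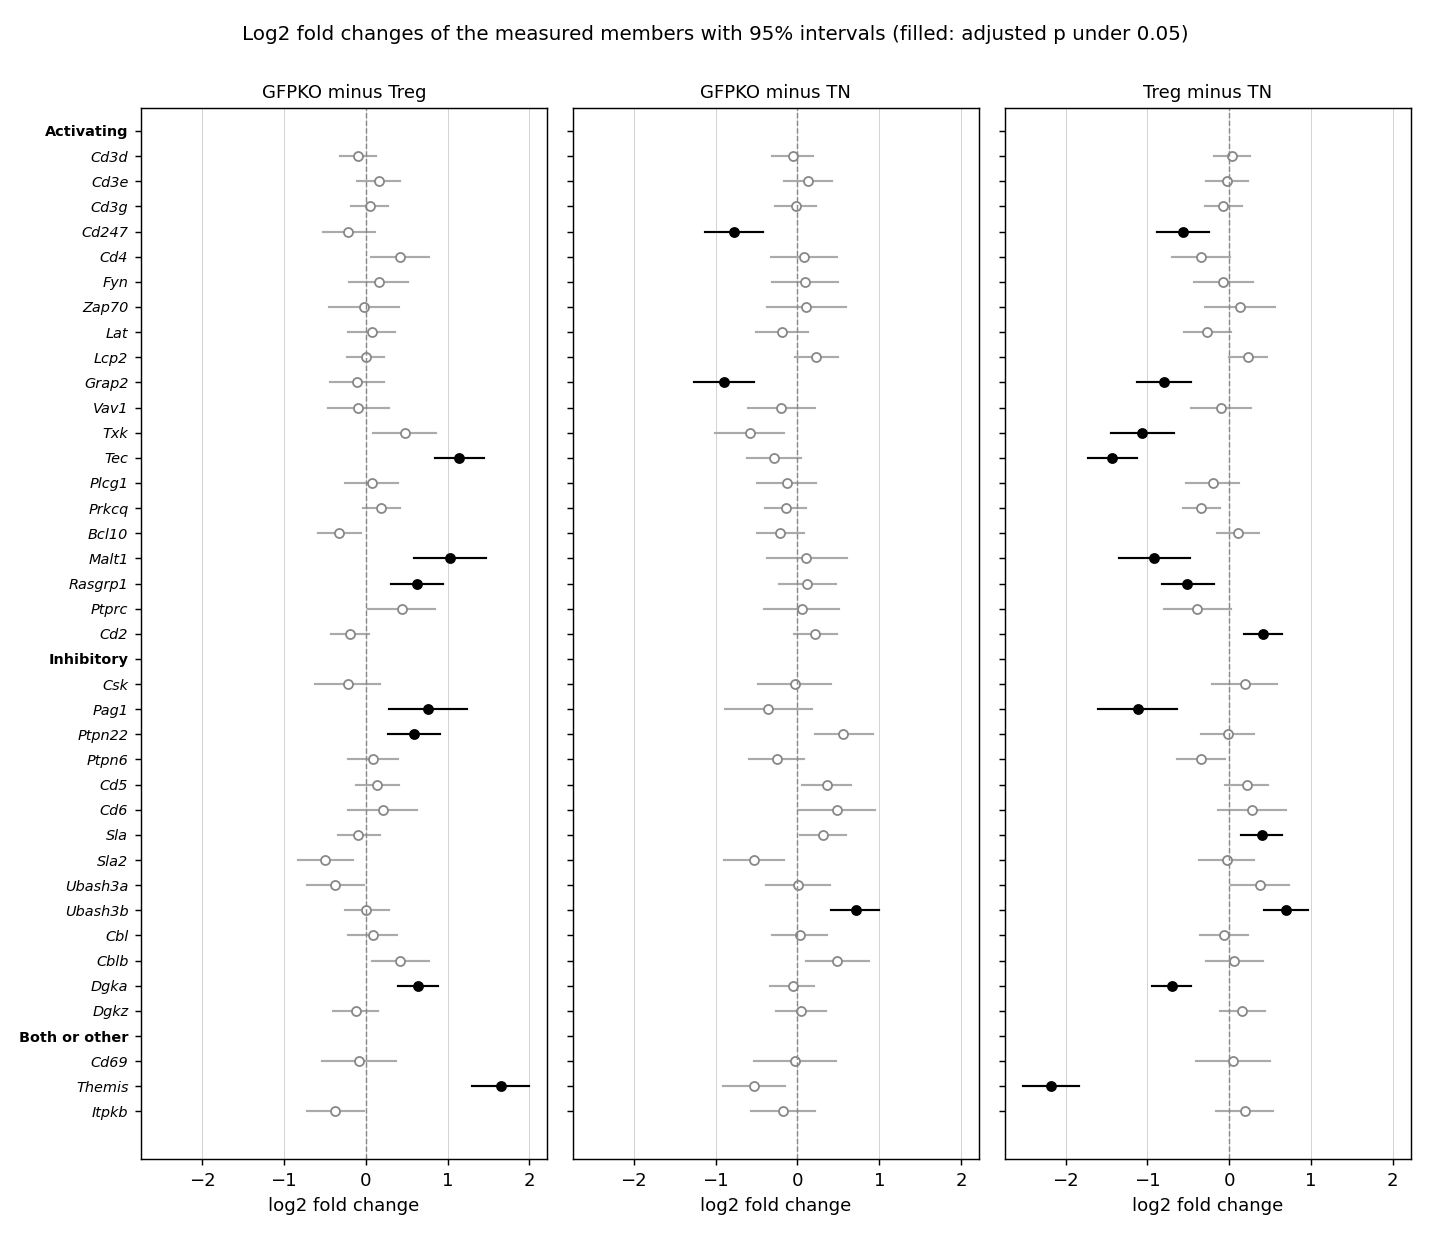
Log2 fold changes of the 37 measured members (horizontal axis) with 95% confidence intervals from limma, by role, in panels for GFPKO minus the arrays labelled Treg, GFPKO minus TN and the arrays labelled Treg minus TN. Filled points mark an adjusted p under 0.05, and they number 7, 3 and 12 in the panels from left to right.

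Counted by role, 3 of the 20 activating members were called higher and 0 lower in GFPKO than on arrays labelled Treg, and at an unadjusted p under 0.05 in limma 7 passed. Against TN, 0 were higher and 2 lower in GFPKO (3 at an unadjusted p under 0.05), and 1 was higher and 6 lower on arrays labelled Treg. Of the 14 inhibitory members, 3 were higher and 0 lower in GFPKO than on arrays labelled Treg (6 at an unadjusted p under 0.05). Against TN, 1 inhibitory member was higher and 0 were lower in GFPKO (7 at an unadjusted p under 0.05), and 2 were higher and 2 lower on arrays labelled Treg. Both classes thus held called members, and no test of a difference between the classes was made. As shares of the activating members these calls were 15% for GFPKO minus arrays labelled Treg, 10% for GFPKO minus TN and 35% for arrays labelled Treg minus TN, and of the inhibitory members 21.4%, 7.14% and 28.6%. The shares over all genes were 9.43%, 5.66% and 9.97%, so those for GFPKO minus TN lay near the background. Of the 9494 genes with a group mean above 5.02, 1733, 1078 and 1699 were called in that order. Beside these brighter genes the shares for GFPKO minus arrays labelled Treg lay near the background as well. In all, 13 members were called in at least 1 comparison and 24 in none.

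Of the called members 3 passed the test in both comparisons with the arrays labelled Treg under each of the 21 alternative settings, namely Tec, Dgka and Themis. The 250 bases before the outermost start of these genes, from RefSeq on GRCm38.p6, are shown because these are the members whose calls held throughout. Each is written 5′ to 3′ on the strand of its gene, and capitals mark GGAAG, the core letters bound by ETS family factors, on either strand. For Tec the window was chr5:72868449-72868698 on the minus strand with 68.4% G and C, for Dgka chr10:128745085-128745334 on the minus strand with 41.2%, and for Themis chr10:28668110-28668359 on the plus strand with 48%.
Tec: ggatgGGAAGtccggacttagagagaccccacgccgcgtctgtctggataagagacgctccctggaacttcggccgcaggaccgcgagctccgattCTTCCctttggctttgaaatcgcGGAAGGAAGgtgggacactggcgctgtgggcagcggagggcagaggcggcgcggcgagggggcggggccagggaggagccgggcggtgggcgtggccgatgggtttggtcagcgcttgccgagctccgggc
Dgka: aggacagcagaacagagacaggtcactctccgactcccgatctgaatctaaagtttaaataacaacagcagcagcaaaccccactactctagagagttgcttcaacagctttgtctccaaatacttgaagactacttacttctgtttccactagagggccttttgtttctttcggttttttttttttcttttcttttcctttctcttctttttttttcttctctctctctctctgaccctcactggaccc
Themis: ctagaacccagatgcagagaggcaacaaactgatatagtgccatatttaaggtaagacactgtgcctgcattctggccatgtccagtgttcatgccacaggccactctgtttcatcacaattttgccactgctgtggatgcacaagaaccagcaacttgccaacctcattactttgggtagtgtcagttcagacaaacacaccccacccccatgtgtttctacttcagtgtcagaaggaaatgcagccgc
The median G and C content of all 32851 promoter windows of this length was 52.4%. Tec held 4 matches of GGAAG, of which a pair overlapped by 1 base, and 64.1% of all windows held at least 1. The letters TGTTTA, bound by forkhead factors, and TGTGGT, bound by RUNX factors, were in none of the 3 windows on either strand and in 12% and 14% of all windows. The table lists 1 start for Tec, 2 for Themis and 4 for Dgka, and 30 of the 37 members had a promoter in it.

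Among the receptor chains and co-receptors, Cd247 was the 1 called chain. It encodes zeta, the chain with the most phosphorylation motifs of the complex. Cd247 read 10.63, 10.81 and 11.39 on GFPKO arrays, 11.15, 11.13, 11.16, 11.16 and 11.17 on arrays labelled Treg, and 11.78, 11.74 and 11.64 on TN arrays. Every GFPKO array and every array labelled Treg lay below every TN array, while GFPKO replicate 3 lay above the arrays labelled Treg and the other GFPKO arrays below them. Relative to TN, Cd247 fell by 0.77 ± 0.16 (SE) on GFPKO arrays (adjusted p = 0.0098) and by 0.56 ± 0.15 on arrays labelled Treg (adjusted p = 0.022). The call in GFPKO was lost without GFPKO replicate 2 (adjusted p = 0.055) or TN replicate 1 (0.051) and with a fit of the compared groups alone (0.084). It was also lost with the actin covariate (0.185) and with the mean of the gene's probe sets (0.14). On arrays labelled Treg the call was lost without TN replicate 1 (adjusted p = 0.1), TN replicate 2 (0.087) or TN replicate 3 (0.052). There it was also lost with the mean of the probe sets (0.067), the probe set of the largest interquartile range (0.116) and the replicate number as a block (0.077). Cd247 was not called for GFPKO minus arrays labelled Treg (-0.21 ± 0.15, adjusted p = 0.444), and was called lower there without GFPKO replicate 3 (0.019).

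None of the CD3 genes was called in any comparison in limma. Cd3d, Cd3e and Cd3g encode the CD3 delta, epsilon and gamma chains, and their genes are neighbours on chromosome 9. Cd3d lay between 13.13 and 13.32 on GFPKO arrays, 13.22 and 13.36 on arrays labelled Treg, and 13.25 and 13.29 on TN arrays. Its difference between GFPKO and arrays labelled Treg was -0.09 (95% interval -0.31 to 0.13), and between arrays labelled Treg and TN it was 0.03 (-0.19 to 0.25). For Cd3e the differences were 0.16 (-0.10 to 0.42) and -0.03 (-0.28 to 0.23), and for Cd3g they were 0.05 (-0.18 to 0.27) and -0.07 (-0.29 to 0.16). All of these intervals for Cd3d, Cd3e and Cd3g lay between -0.31 and 0.42 on the log2 scale.

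Cd4, the co-receptor that binds MHC class II, read 7.79, 8.16 and 8.37 on GFPKO arrays, 7.61, 7.74, 7.34, 7.84 and 7.90 on arrays labelled Treg, and 7.74, 8.17 and 8.18 on TN arrays. The groups overlapped. Cd4 was not called by its brightest probe set, at 0.42 ± 0.17 for GFPKO minus arrays labelled Treg (adjusted p = 0.136) and -0.34 ± 0.17 for arrays labelled Treg minus TN (adjusted p = 0.271). Another Cd4 probe set gave 0.55 ± 0.16 (adjusted p = 0.046 over all probe sets) and -0.66 ± 0.16 (0.016) in these comparisons, so the call depends on the probe set. Ptprc encodes CD45, the phosphatase that keeps Src family kinases ready to act. Its brightest probe set was not called, at 0.44 ± 0.19 for GFPKO minus arrays labelled Treg (adjusted p = 0.177), while another probe set gave 1.35 ± 0.29 (adjusted p = 0.011 over all probe sets). For arrays labelled Treg minus TN the brightest Ptprc probe set gave -0.39 ± 0.19 (adjusted p = 0.275). The other gave -1.12 ± 0.29 there (0.029 over all probe sets), so the Ptprc calls depend on the probe set.

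Cd2, an adhesion and co-stimulatory receptor of T cells, read 12.01, 12.09 and 12.14 on GFPKO arrays, 12.17, 12.24, 12.42, 12.20 and 12.33 on arrays labelled Treg, and 11.91, 11.84 and 11.82 on TN arrays. The groups did not overlap. Cd2 rose by 0.41 ± 0.11 on arrays labelled Treg relative to TN (adjusted p = 0.021). That call was lost when arrays were centred on their median (0.27, adjusted p = 0.097) and without Treg replicate 3 (0.059), TN replicate 1 (0.054), TN replicate 2 (0.089) or TN replicate 3 (0.09).

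Neither Zap70 nor Lat was called in any comparison by its brightest probe set. Zap70, the kinase that binds phosphorylated CD3 and zeta chains, read 9.98, 10.54 and 11.16 on GFPKO arrays, 10.41, 10.63, 10.44, 10.58 and 10.84 on arrays labelled Treg, and 10.36, 10.57 and 10.42 on TN arrays. GFPKO replicate 1 was the lowest and GFPKO replicate 3 the highest of all 11 arrays. The differences were -0.02 (95% interval -0.45 to 0.41) for GFPKO minus arrays labelled Treg, 0.11 (-0.37 to 0.59) for GFPKO minus TN and 0.13 (-0.30 to 0.56) for arrays labelled Treg minus TN. Lat, the membrane scaffold that Zap70 phosphorylates, read 11.47, 11.75 and 12.00 on GFPKO arrays, 11.53, 11.70, 11.62, 11.67 and 11.80 on arrays labelled Treg, and 11.75, 12.07 and 11.97 on TN arrays. The groups overlapped, and the Lat differences were 0.08 (-0.21 to 0.36), -0.19 (-0.51 to 0.13) and -0.27 (-0.55 to 0.02) in the same order. Among the 21 alternatives Lat was called in 1, lower on arrays labelled Treg than on TN arrays when arrays were centred on their median (adjusted p = 0.034).

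Fyn, a Src family kinase, ran from 9.46 to 10.20 on GFPKO arrays, 9.32 to 9.94 on arrays labelled Treg and 9.70 to 9.72 on TN arrays. Lcp2 encodes the scaffold SLP-76, and it differed by 0.23 ± 0.12 for GFPKO minus TN (adjusted p = 0.374) and 0.23 ± 0.11 for arrays labelled Treg minus TN (0.242). Vav1, an exchange factor for Rac, differed by -0.20 ± 0.19 and -0.10 ± 0.17 in those comparisons. Plcg1, the phospholipase that makes diacylglycerol and inositol trisphosphate, differed by -0.13 ± 0.17 and -0.20 ± 0.15. For GFPKO minus arrays labelled Treg, the 95% interval of Lcp2 by its brightest probe set was -0.23 to 0.23, while another Lcp2 probe set was called lower in GFPKO (-0.44 ± 0.12, adjusted p = 0.042 over all probe sets). Fyn, Lcp2, Vav1 and Plcg1 were not called in any comparison by their brightest probe sets, and a missed threshold does not show that the groups were alike.

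**Figure D3:**
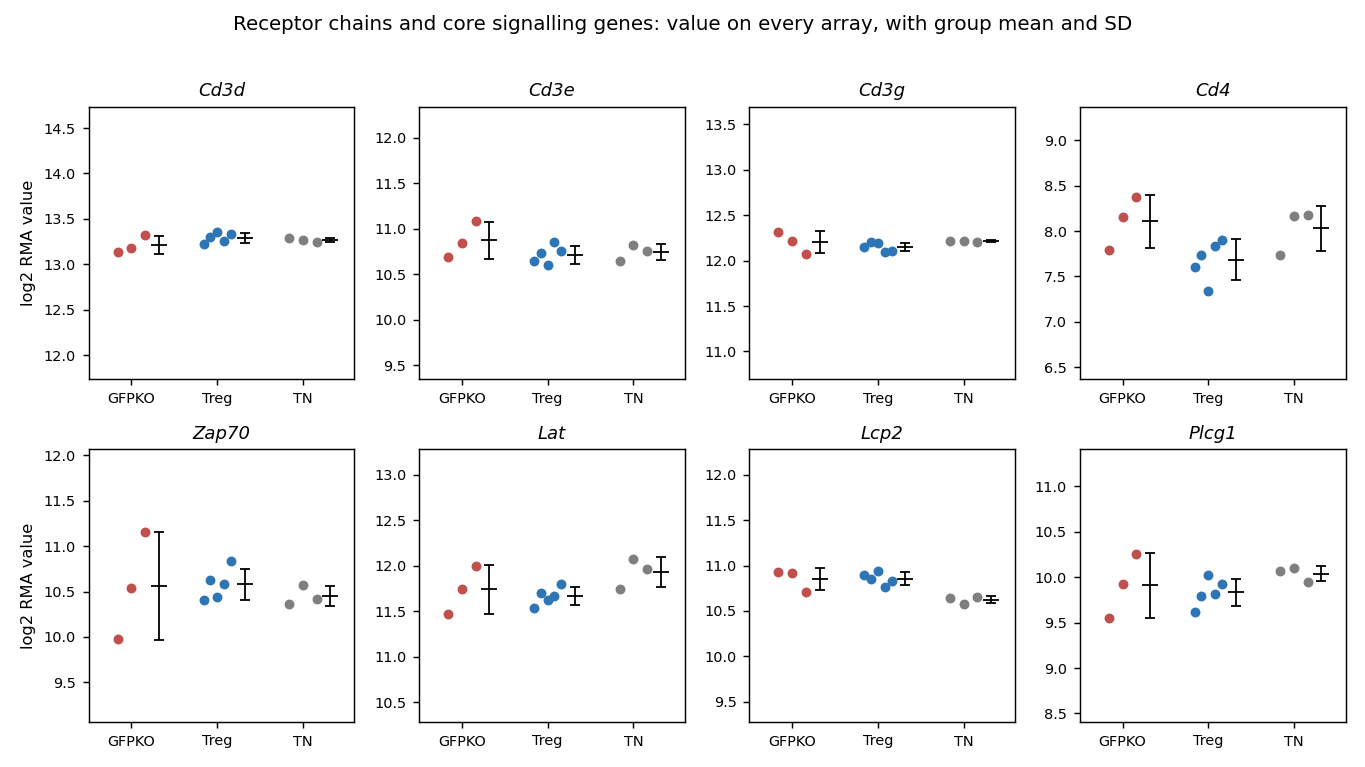
Log2 RMA value of 8 receptor and core signalling members on each array (vertical axis, at least 3 log2 units per panel), with the group mean and SD in black for GFPKO, the arrays labelled Treg and TN. None of these members is called by its plotted probe set, and for Zap70 GFPKO replicate 1 is lowest at 9.98 and GFPKO replicate 3 highest at 11.16.

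Grap2 encodes GADS, the adaptor that links SLP-76 to Lat. Grap2 read 5.72, 6.44 and 6.34 on GFPKO arrays, 6.17, 6.14, 6.36, 6.28 and 6.36 on arrays labelled Treg, and 7.21, 7.08 and 6.90 on TN arrays. All TN arrays lay above all the others, and GFPKO overlapped with the arrays labelled Treg. Relative to TN, Grap2 fell by 0.90 ± 0.17 on GFPKO arrays (adjusted p = 0.0049), a 1.86-fold lower signal, and by 0.80 ± 0.16 on arrays labelled Treg (adjusted p = 0.0025), 1.74-fold lower. The fall in GFPKO was not called with the actin covariate (adjusted p = 0.083). Its other probe set gave -0.57 ± 0.16 and -0.44 ± 0.14 in these comparisons and was not called (adjusted p = 0.067 and 0.089 over all probe sets).

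The TEC family kinases phosphorylate phospholipase C gamma and so help to release calcium. Tec and Txk are adjacent on chromosome 5, with no other protein-coding gene between them in RefSeq. Tec read 8.38, 8.75 and 8.65 on GFPKO arrays, 7.28, 7.27, 7.34, 7.67 and 7.70 on arrays labelled Treg, and 8.95, 8.84 and 8.85 on TN arrays. The 5 arrays labelled Treg lay below all the others, and every GFPKO array lay below every TN array. Tec rose by 1.14 ± 0.14 on GFPKO arrays relative to arrays labelled Treg, 2.21-fold (adjusted p = 8.2e-05). Relative to TN it fell by 1.43 ± 0.14 on arrays labelled Treg, 2.69-fold lower (adjusted p = 3.1e-06). For GFPKO minus TN the difference was -0.29 ± 0.15 (95% interval -0.62 to 0.04, adjusted p = 0.399).

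Txk, a TEC family kinase of T cells also called RLK, read 8.44, 8.20 and 7.95 on GFPKO arrays, 7.67, 7.55, 8.10, 7.58 and 7.71 on arrays labelled Treg, and 9.18, 8.77 and 8.40 on TN arrays. The arrays labelled Treg lay below all TN arrays, and Treg replicate 3 lay among the GFPKO arrays. Txk fell by 1.06 ± 0.18 on arrays labelled Treg relative to TN, 2.09-fold lower (adjusted p = 8e-04). It was not called for GFPKO minus arrays labelled Treg (0.48 ± 0.18, adjusted p = 0.12) or for GFPKO minus TN (-0.58 ± 0.20, adjusted p = 0.124). The first of these became a call without GFPKO replicate 3 (adjusted p = 0.046) and the second without TN replicate 3 (0.044).

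Downstream of phospholipase C, protein kinase C theta (Prkcq) phosphorylates a scaffold that assembles with Bcl10 and Malt1 and turns on NF-kB. Malt1, the protease of that complex, read 8.24, 7.81 and 7.51 on GFPKO arrays, 7.32, 6.98, 6.88, 6.45 and 6.49 on arrays labelled Treg, and 7.80, 7.89 and 7.53 on TN arrays. The arrays labelled Treg lay below all the others, and GFPKO and TN overlapped. Malt1 rose by 1.03 ± 0.20 on GFPKO arrays relative to arrays labelled Treg, 2.04-fold (adjusted p = 0.0046), and the adjusted p was 0.053 with the actin covariate. It fell by 0.92 ± 0.20 on arrays labelled Treg relative to TN, 1.89-fold lower (adjusted p = 0.0072). GFPKO minus TN gave 0.11 ± 0.23 (95% interval -0.37 to 0.60).

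Neither Bcl10 nor Prkcq was called in any comparison. Bcl10 differed by -0.32 ± 0.12 for GFPKO minus arrays labelled Treg (adjusted p = 0.125) and by 0.11 ± 0.12 for arrays labelled Treg minus TN (adjusted p = 0.717). Prkcq was 10.80 to 10.95 on GFPKO arrays, 10.58 to 10.78 on arrays labelled Treg and 11.02 to 11.05 on TN arrays. Its groups did not overlap, but -0.34 ± 0.11 for arrays labelled Treg minus TN missed the threshold (adjusted p = 0.059). Prkcq was called lower on arrays labelled Treg than in TN in 10 of the 21 alternatives (adjusted p = 0.012 to 0.048), among them the omission of GFPKO replicate 1 (0.044) or GFPKO replicate 3 (0.047).

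Rasgrp1, the exchange factor through which diacylglycerol activates Ras, read 10.66, 10.21 and 10.06 on GFPKO arrays, 9.96, 9.67, 9.67, 9.67 and 9.44 on arrays labelled Treg, and 10.26, 10.18 and 10.13 on TN arrays. Here too the arrays labelled Treg lay below all the others. Rasgrp1 rose by 0.63 ± 0.15 on GFPKO arrays relative to arrays labelled Treg (adjusted p = 0.014), a call lost without GFPKO replicate 1 (0.076) and with the actin covariate (0.134). It fell by 0.51 ± 0.15 on arrays labelled Treg relative to TN (adjusted p = 0.041). The fall was not called without GFPKO replicate 2, without any 1 of Treg replicates 2, 3, 4 and 5, or without any 1 of the TN replicates (adjusted p = 0.052 to 0.163). It was also lost with the mean of the probe sets (0.125), the probe set of the largest interquartile range (0.084) and the replicate number as a block (0.118).

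**Figure D4:**
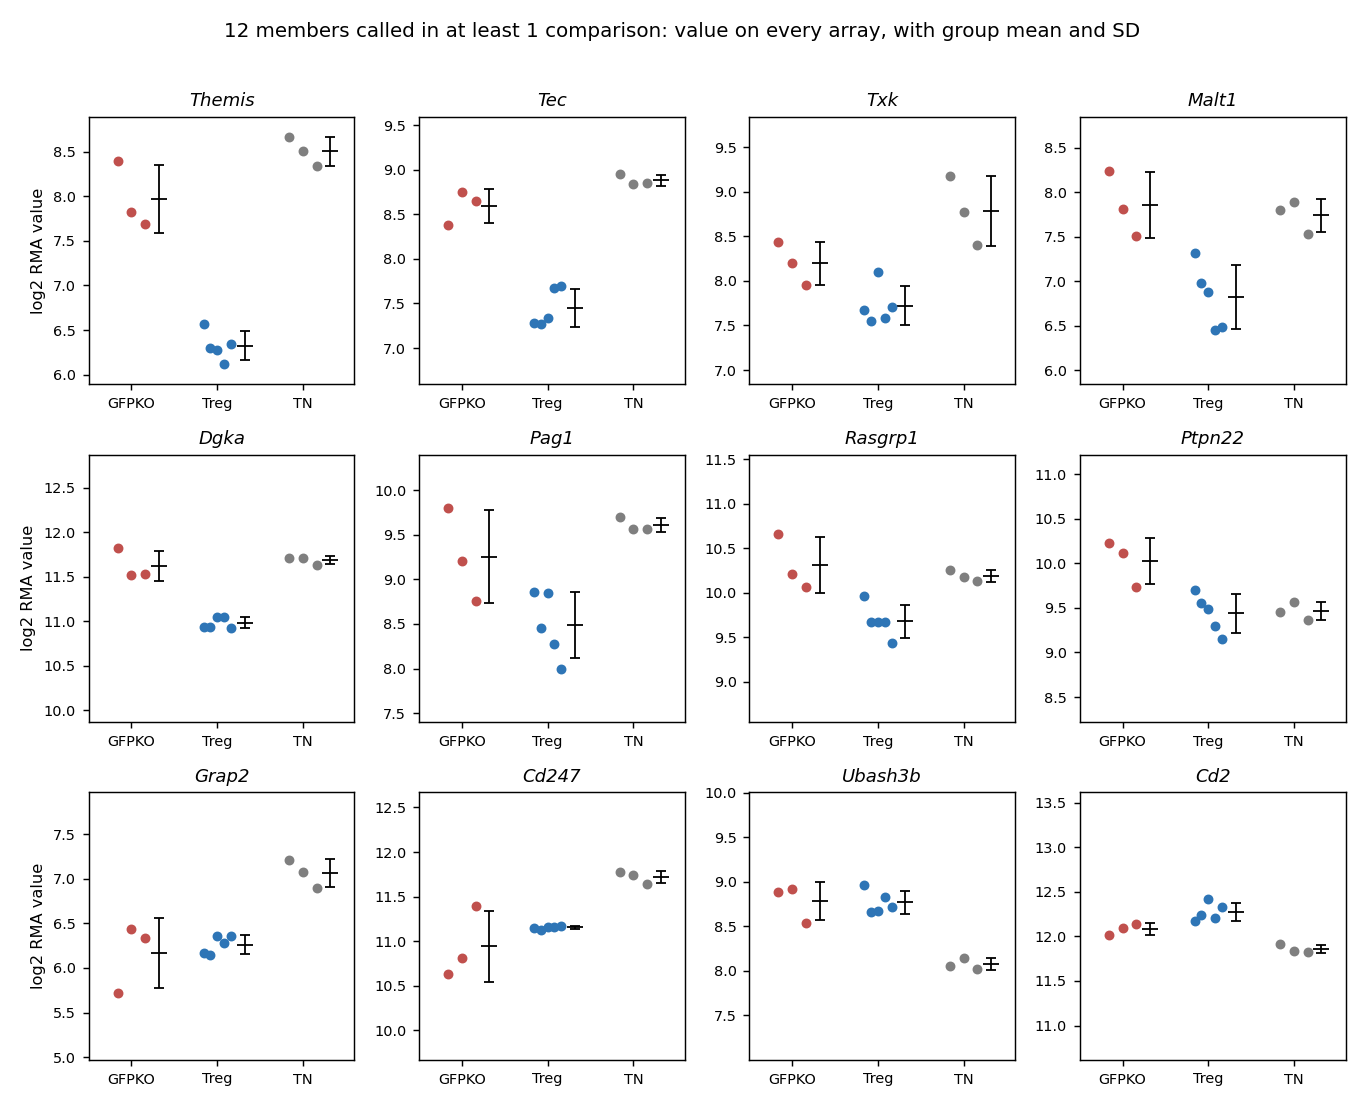
Log2 RMA value on each array (vertical axis) of 12 of the 13 members called in at least 1 comparison, with the group mean and SD in black for GFPKO, the arrays labelled Treg and TN. Themis, Tec, Malt1, Dgka and Rasgrp1 are lowest on all 5 arrays labelled Treg, and Grap2 and Cd247 are highest on the 3 TN arrays.

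Of the inhibitory members, Dgka had the smallest adjusted p in the comparisons with arrays labelled Treg. It encodes diacylglycerol kinase alpha, which removes the lipid that activates Rasgrp1. Dgka read 11.82, 11.52 and 11.53 on GFPKO arrays, 10.94, 10.94, 11.05, 11.05 and 10.93 on arrays labelled Treg, and 11.71, 11.71 and 11.63 on TN arrays. The arrays labelled Treg lay below all the others by at least the spread within any group, and GFPKO and TN overlapped. Dgka rose by 0.64 ± 0.11 on GFPKO arrays relative to arrays labelled Treg, 1.56-fold (adjusted p = 0.0018), and fell by 0.70 ± 0.11 on arrays labelled Treg relative to TN, 1.63-fold lower (adjusted p = 0.00044). GFPKO minus TN gave -0.06 (95% interval -0.33 to 0.20). Dgkz, the zeta form of the same enzyme, was not called, at -0.12 ± 0.13, 0.04 ± 0.14 and 0.16 ± 0.13 for GFPKO minus arrays labelled Treg, GFPKO minus TN and arrays labelled Treg minus TN.

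Pag1 encodes a membrane adaptor that brings the inhibitory kinase Csk to Src family kinases. Pag1 read 9.80, 9.21 and 8.76 on GFPKO arrays, 8.86, 8.45, 8.85, 8.28 and 8.00 on arrays labelled Treg, and 9.70, 9.56 and 9.57 on TN arrays. GFPKO overlapped with both other groups, and the arrays labelled Treg lay below all TN arrays. Pag1 fell by 1.12 ± 0.22 on arrays labelled Treg relative to TN, 2.18-fold lower (adjusted p = 0.0033). Its rise of 0.76 ± 0.22 on GFPKO arrays relative to arrays labelled Treg (adjusted p = 0.045) was lost in 12 of 21 alternatives. Among these were each omission of an array except GFPKO replicate 3 and Treg replicates 1 and 3 (adjusted p = 0.061 to 0.222). With the mean of its probe sets the adjusted p was 0.717. Csk itself was not called, at -0.22 ± 0.19, -0.03 ± 0.21 and 0.19 ± 0.19 for GFPKO minus arrays labelled Treg, GFPKO minus TN and arrays labelled Treg minus TN.

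Ptpn22, a phosphatase that acts with Csk on Src family kinases, read 10.23, 10.12 and 9.73 on GFPKO arrays, 9.70, 9.55, 9.49, 9.30 and 9.15 on arrays labelled Treg, and 9.45, 9.57 and 9.37 on TN arrays. All GFPKO arrays lay above all the others. Ptpn22 rose by 0.59 ± 0.15 on GFPKO arrays relative to arrays labelled Treg (adjusted p = 0.021). That call was lost without GFPKO replicate 1 (0.098), GFPKO replicate 2 (0.092), Treg replicate 4 (0.054) or Treg replicate 5 (0.051), and with the actin covariate (0.202). The difference from TN, 0.56 ± 0.17, was not called (adjusted p = 0.065), and was called without GFPKO replicate 3 (0.013). Ptpn6, the phosphatase SHP-1, was not called, and its largest difference was -0.34 ± 0.14 for arrays labelled Treg minus TN (adjusted p = 0.165).

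Ubash3b encodes STS-1, a phosphatase that acts on Zap70. Ubash3b read 8.89, 8.92 and 8.54 on GFPKO arrays, 8.96, 8.66, 8.67, 8.83 and 8.72 on arrays labelled Treg, and 8.06, 8.15 and 8.02 on TN arrays. All TN arrays lay below all the others, and GFPKO overlapped with the arrays labelled Treg. Relative to TN, Ubash3b rose by 0.71 ± 0.14 on GFPKO arrays (1.63-fold, adjusted p = 0.0056) and by 0.69 ± 0.12 on arrays labelled Treg (1.62-fold, adjusted p = 0.0013). The rise in GFPKO was not called with the actin covariate (adjusted p = 0.111). The related gene Ubash3a, which encodes STS-2, was not called, at 0.01 ± 0.18 for GFPKO minus TN and 0.38 ± 0.17 for arrays labelled Treg minus TN (adjusted p = 0.213). Without GFPKO replicate 3 it was called lower in GFPKO than on arrays labelled Treg (adjusted p = 0.017, against 0.193 with every array). Its other probe set went the opposite way and was not called (0.46 ± 0.20, adjusted p = 0.188 over all probe sets). For arrays labelled Treg minus TN that probe set gave -0.46 ± 0.20 (0.227), so the direction of Ubash3a depends on the probe set.

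Sla encodes SLAP, an adaptor that lowers receptor levels at the surface through Cbl. Sla read 10.48, 10.37 and 10.45 on GFPKO arrays, 10.61, 10.51, 10.62, 10.51 and 10.35 on arrays labelled Treg, and 10.29, 10.14 and 9.93 on TN arrays. TN lay below the other groups, which overlapped with each other. Sla rose by 0.40 ± 0.12 on arrays labelled Treg relative to TN (adjusted p = 0.045). That call was lost when arrays were centred on their median (0.26, adjusted p = 0.208), with the mean of its probe sets (0.35, 0.12) and with the probe set of the largest interquartile range (0.12, 0.858). It was also lost without GFPKO replicate 2, without any 1 of Treg replicates 1 to 4, or without TN replicate 2 or 3 (adjusted p = 0.054 to 0.234). Sla2, a related adaptor, was not called, at -0.50 ± 0.16 for GFPKO minus arrays labelled Treg (adjusted p = 0.062) and -0.53 ± 0.17 for GFPKO minus TN (adjusted p = 0.104). It was called lower in GFPKO in both comparisons without GFPKO replicate 3 (adjusted p = 0.0049 and 0.0096), and by its other probe set (-0.56 and -0.67, adjusted p = 0.018 and 0.017 over all probe sets).

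The remaining inhibitory members were not called in any comparison. Cd5 and Cd6, neighbouring genes on chromosome 19, encode surface receptors that damp receptor signals. Cd5 gave 0.36 ± 0.14 for GFPKO minus TN (adjusted p = 0.184) and Cd6, whose arrays overlapped with TN, gave 0.48 ± 0.22 (adjusted p = 0.283). Without GFPKO replicate 1 both were called (adjusted p = 0.05 for Cd5 and 0.043 for Cd6). The ubiquitin ligase gene Cblb gave 0.42 ± 0.16 for GFPKO minus arrays labelled Treg (adjusted p = 0.126) and 0.48 ± 0.18 for GFPKO minus TN (adjusted p = 0.165), and both were called without GFPKO replicate 3 (0.02 and 0.03). Another Cblb probe set gave 1.25 ± 0.28 for GFPKO minus arrays labelled Treg (adjusted p = 0.013 over all probe sets). The remaining Cblb probe set gave -0.11 ± 0.13 there (adjusted p = 0.665), so the rise depends on the probe set. Cbl, a relative of Cblb, differed by at most 0.09 in size by its brightest probe set (0.09 ± 0.14 for GFPKO minus arrays labelled Treg). Another Cbl probe set gave 0.28 ± 0.18 there and 0.35 ± 0.20 for GFPKO minus TN. The remaining Cbl probe set gave -0.33 ± 0.16 and -0.28 ± 0.18, and neither was called.

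Among the 3 members with both or other roles, Themis had the widest differences of all members in both comparisons with the arrays labelled Treg. Themis is an adaptor that binds GRB2 and SHP-1 and is needed for the positive selection of thymocytes. Themis read 8.40, 7.82 and 7.69 on GFPKO arrays, 6.57, 6.30, 6.28, 6.12 and 6.34 on arrays labelled Treg, and 8.66, 8.51 and 8.34 on TN arrays. All arrays labelled Treg lay more than 1 log2 unit below every other array, and GFPKO overlapped with TN. Themis rose by 1.65 ± 0.16 on GFPKO arrays relative to arrays labelled Treg, 3.13-fold (adjusted p = 9.8e-06). Relative to TN it fell by 2.18 ± 0.16 on arrays labelled Treg, 4.52-fold lower (adjusted p = 1.6e-07), and it ranked 41 from the lowest log2 fold change of 18193 genes. GFPKO minus TN gave -0.53 ± 0.18 (adjusted p = 0.115), which was called without GFPKO replicate 1 (0.0079).

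Cd69, an early activation marker that also holds cells in tissue, was not called and ran from 7.98 to 8.75 on GFPKO arrays, 8.16 to 9.14 on arrays labelled Treg and 8.33 to 8.66 on TN arrays. Its difference between GFPKO and arrays labelled Treg was -0.08 (95% interval -0.53 to 0.37). Itpkb, a kinase that uses up inositol trisphosphate, was not called by its brightest probe set, at -0.37 ± 0.16 for GFPKO minus arrays labelled Treg (adjusted p = 0.189). Without GFPKO replicate 3 it was called lower (adjusted p = 0.011), and another Itpkb probe set was called the opposite way (0.90 ± 0.26, adjusted p = 0.049 over all probe sets). Its direction therefore depends on the probe set.

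Of the 37 members 23 had several probe sets, and the members held 78 in all. Adjusted over all probe sets, all 4 Themis and all 3 Malt1 probe sets were called in both comparisons with the arrays labelled Treg, in the direction given above. The 3 Ubash3b probe sets were called higher than TN in both comparisons. Against arrays labelled Treg, GFPKO was higher by 1.26 and 1.81 on the log2 scale for those dimmer Themis probe sets with a mean above background in both groups, and by 1.66 and 1.80 for the dimmer Malt1 probe sets. For the remaining Themis probe set the arrays labelled Treg averaged 3.79, below background, so its size is not given. Pag1 showed its fall from TN on arrays labelled Treg by its brightest probe set alone (-1.12 ± 0.23, adjusted p = 0.0053), and the others lay between -0.43 and 0.08. Rasgrp1 was called higher in GFPKO than on arrays labelled Treg by 2 of its 4 probe sets (0.63 and 0.99). For Cd247, 2 probe sets were called lower in GFPKO than in TN (-0.77 and -1.04), and a dim one was called higher (0.73 ± 0.16, adjusted p = 0.018), with means of 4.26 on GFPKO arrays and 3.53, below background, on TN arrays.

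**Figure D5:**
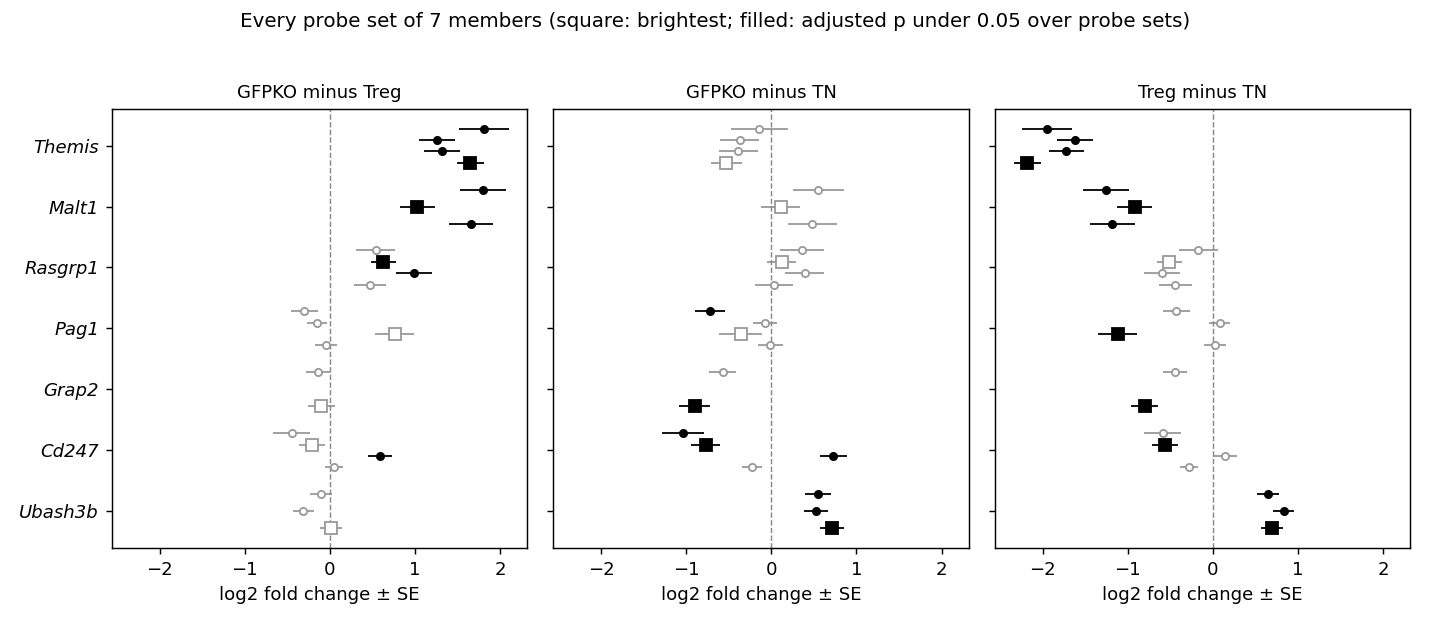
Log2 fold change ± SE (horizontal axis) of every probe set of 7 members in panels for GFPKO minus the arrays labelled Treg, GFPKO minus TN and the arrays labelled Treg minus TN, with squares for the brightest probe set and filled marks for an adjusted p under 0.05 over all probe sets. All Themis and Malt1 probe sets are filled in both comparisons with the arrays labelled Treg, while those of Cd247 lie on both sides of 0 for GFPKO minus TN.

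The members varied most on GFPKO arrays. Their SD was largest in GFPKO for 30 of 37 members (81.1%), where that held for 58.3% of all genes. The median SD of the members was 0.31 on GFPKO arrays, 0.15 on arrays labelled Treg and 0.08 on TN arrays, and over all genes it was 0.24, 0.17 and 0.15. GFPKO replicate 1 was the highest or lowest of its group for 36 members and GFPKO replicate 3 for 33, while GFPKO replicate 2 was so for 5. These are 97.3%, 89.2% and 13.5% of the members, against 75%, 74.2% and 50.8% of all genes. Zap70, Lat, Csk and Cd6 were lowest in GFPKO replicate 1 and highest in replicate 3, and Pag1, Malt1 and Rasgrp1 were highest in replicate 1 and lowest in replicate 3.

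Other genes of the pathway were taken from 4 lists of 69 genes, of which 57 were measured. In GFPKO relative to arrays labelled Treg 3 were called higher and 4 lower, relative to TN 1 higher and 2 lower, and on arrays labelled Treg relative to TN 4 higher and 9 lower. These were 12.3%, 5.26% and 22.8% of the 57, against 9.43%, 5.66% and 9.97% of all genes, so the shares of both GFPKO comparisons lay near the background. Of the 25 measured kinases, phosphatases and adaptors near the receptor, 1 was higher and 4 lower in GFPKO than on arrays labelled Treg, 0 higher and 1 lower than in TN, and 3 higher and 4 lower on arrays labelled Treg than in TN. In that order the shares called were 20%, 4% and 28%, and the second lay below the 5.66% of all genes. Unc119, which activates Src family kinases, fell by 1.43 ± 0.18 in GFPKO relative to arrays labelled Treg (adjusted p = 1e-04) and rose by 1.64 ± 0.18 on arrays labelled Treg relative to TN (adjusted p = 1e-05). Dok1, an inhibitory adaptor, had values of -0.90 ± 0.17 (adjusted p = 0.0034) and 0.91 ± 0.17 (0.0018) in these comparisons. Sh2d1a, which encodes the adaptor SAP, was at -0.56 ± 0.11 for GFPKO minus arrays labelled Treg (adjusted p = 0.006). The calls of Unc119, Dok1 and Sh2d1a held under all 21 alternatives. Grap, a relative of GRB2, was called lower in GFPKO than on arrays labelled Treg (-0.85 ± 0.24, adjusted p = 0.037), but the call was lost without any 1 array other than GFPKO replicate 3 and Treg replicate 1 (0.051 to 0.18). With the actin covariate its adjusted p was 0.341, and with arrays centred on their median 0.075.

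Sit1, which encodes an inhibitory transmembrane adaptor, fell by 1.01 ± 0.22 in GFPKO relative to TN (adjusted p = 0.011), a call lost without GFPKO replicate 2 (0.057) or TN replicate 1 (0.065). The call was also lost with the actin covariate (0.193) and in a fit of the compared groups alone (0.071). Trat1, the gene of the receptor-associated adaptor TRIM, fell by 0.99 ± 0.28 on arrays labelled Treg relative to TN (adjusted p = 0.034), and was not called without any 1 of Treg replicates 2, 4 and 5 or of the TN replicates (0.055 to 0.171). The adaptor gene Gab3 fell by 0.77 ± 0.19 in that comparison (adjusted p = 0.016), which was lost without TN replicate 2 (0.109).

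In the Ras branch 11 genes were measured. None was called between GFPKO and arrays labelled Treg in limma (6 at an unadjusted p under 0.05). Rasa1, which switches Ras off, rose by 1.13 ± 0.26 in GFPKO relative to TN (adjusted p = 0.016), a call lost without GFPKO replicate 2 (0.053) or TN replicate 1 (0.09). The call was also lost with the actin covariate (0.294) and in a fit of the compared groups alone (0.085). With the mean of its probe sets the adjusted p was 0.059, and with the probe set of the largest interquartile range 0.111. Nras and Rasa3, another gene that switches Ras off, fell by 0.77 ± 0.21 (adjusted p = 0.032) and 0.47 ± 0.14 (0.047) on arrays labelled Treg relative to TN. Nras was not called without any 1 of Treg replicates 2, 4 and 5 or of the TN replicates (0.05 to 0.155), and Rasa3 not without any 1 of Treg replicates 1, 2, 3 and 5 or of the TN replicates (0.063 to 0.167).

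In the calcium branch 14 genes were measured. Nfatc3, a transcription factor turned on by calcium, rose by 0.63 ± 0.14 in GFPKO relative to arrays labelled Treg (adjusted p = 0.012), a call lost without GFPKO replicate 1 (0.066). The call was also lost with the actin covariate (0.104) and with the replicate number as a block (0.068). Ppp3r1, the regulatory subunit of calcineurin, fell by 0.59 ± 0.13 on arrays labelled Treg relative to TN (adjusted p = 0.0089), which was lost without TN replicate 1 (0.064). Stim1, the calcium sensor of the endoplasmic reticulum, fell by 0.49 ± 0.14 there (adjusted p = 0.04), and was not called without any 1 of the Treg or TN replicates (0.06 to 0.166). None of the 14 was called between GFPKO and TN in limma (1 at an unadjusted p under 0.05).

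In the NF-kB branch 7 genes were measured. Tnfaip3, which encodes the NF-kB inhibitor A20, rose by 0.59 ± 0.13 on arrays labelled Treg relative to TN (adjusted p = 0.005), a call lost with the mean of its probe sets (0.084). Map3k7, the kinase TAK1, rose by 0.47 ± 0.14 in GFPKO relative to arrays labelled Treg (adjusted p = 0.048), and was not called without any 1 of the GFPKO or TN replicates or of Treg replicates 2, 4 and 5 (0.051 to 0.193). With the mean of its probe sets the adjusted p was 0.702, and with the actin covariate 0.189. Ikbkb, a kinase of the NF-kB inhibitors, fell relative to TN by 0.42 ± 0.12 in GFPKO (adjusted p = 0.047) and by 0.35 ± 0.10 on arrays labelled Treg (0.044). The first of these was lost without any 1 array other than GFPKO replicate 1 (0.058 to 0.15), and the second without any 1 of the Treg or TN replicates (0.062 to 0.141). Neither was called with the mean of the gene's probe sets (0.179 and 0.118), and the first was also lost with the actin covariate (0.206).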

How the data were processed

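Expression was measured on 11 Affymetrix arrays, 1 per sample, with biotin-labelled total RNA per the labels. Per the submitters' processing notes the authors made the values with RMA (background correction, quantile normalisation and a summary per probe set), whose version is not given in the sources used here. The deposited values were taken as log2, a scale not stated and read from the values (1.54 to 14.65, array medians 4.07 to 4.16). No depth or detection call enters, and the number of arrays limits the precision. No arrays held identical values.

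Of 45101 probe sets, 64 controls, 932 with several gene symbols and 9160 not listed in the gene table were left out. The 34945 with 1 symbol gave 18193 genes, and 34741 of them matched the RefSeq table by Entrez ID. Symbols come from the platform annotation, which can be old.

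Groups came from the labels. A linear model with 1 mean per group and no covariate was fitted to all genes in R 4.3.3 by limma 3.58.1 (lmFit and eBayes). The two-sided p-values were adjusted by Benjamini-Hochberg over all genes of a comparison, and calls were made at an adjusted p under 0.05. The fit was tested on simulated data. Tables and figures were made with pandas 2.3.3 and matplotlib 3.10.9 in Python 3.11.15.

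The members and lists were chosen with earlier results of these data known. Values on every array are given for Cd4, Zap70, Lat and each called member with a log2 fold change of at least 0.8 in size, and also for the other called members, which the naming rule did not require. From each of 4 pathway lists up to 4 called genes per comparison, those with the largest change, are named. The 21 alternatives were 10 other settings and the omission of each of the 11 arrays in turn.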

Additional observations from a re-analysis of the deposited data

Results flagged for a closer look

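The value of Txk on Treg replicate 3, 8.10 on the log2 scale, stood apart from the other arrays labelled Treg. The nearest of them read 7.71 and the lowest 7.55, so the gap made up 0.714 of the range, above the critical value of 0.71 for a group of 5. Of 37 such groups tested 1 stood apart, and chance alone does this in about 1 of 20.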

How the results depend on the processing

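Of 22 calls of members, 11 held under all 21 alternatives: 3 of 7 for GFPKO minus arrays labelled Treg, 0 of 3 for GFPKO minus TN and 8 of 12 for arrays labelled Treg minus TN. The count of members called for GFPKO minus arrays labelled Treg (7) was 13 with the probe set of the largest interquartile range, 15 with array weights, 3 with the actin covariate and 4 to 13 with 1 array left out. For GFPKO minus TN (3) it was 11 with array weights, 0 with the actin covariate (limma, 8 at an unadjusted p under 0.05) and 2 to 6 with 1 array left out. For arrays labelled Treg minus TN (12) it was 8 to 13 with 1 array left out. Counts over all genes for GFPKO minus arrays labelled Treg (1716) were 6756 with array weights, 811 with the actin covariate, and 1134 to 3421 with 1 array left out. Those for GFPKO minus TN (1029) were 5051 with array weights, 562 in a fit of these groups alone, 570 with the actin covariate and 644 to 1868 with 1 array left out. For arrays labelled Treg minus TN (1813) array weights gave 3223. Cause was not tested in any of these. Centring moved the split of calls over all genes to 899 higher and 675 lower (464 and 1252 as reported) for GFPKO minus arrays labelled Treg, and to 904 and 1174 (1190 and 623) for arrays labelled Treg minus TN. Quantile normalisation again gave 656 and 922 for GFPKO minus arrays labelled Treg, and 2 higher and 2 lower members for GFPKO minus TN (1 and 2 as reported). With the probe set of the largest interquartile range, the log2 fold change of Itpkb for GFPKO minus arrays labelled Treg turned to 0.90 (adjusted p = 0.037) and that of Nck1 for GFPKO minus TN to 0.59 (adjusted p = 0.046); other probe sets were read.

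Replicate numbers are shared by the groups. The 9 same-numbered pairs had correlations of -0.22 to 0.507 in their deviations from the group means, and 3 of 9 arrays correlated best with their own number. Deviations from the means of so few arrays cannot decide whether the numbers pair the samples. With the replicate number as a block, 1049 genes were called for GFPKO minus arrays labelled Treg, 1028 for GFPKO minus TN and 1436 for arrays labelled Treg minus TN, and 5, 4 and 8 members.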
